A study of Mus musculus with 2 samples.

Results

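GABAergic neurons with Six3 or Foxp2 RNA were examined in single-cell libraries of mouse cortex at postnatal day 5. A barcode counted as such a cell when it held 1000 or more unique molecular identifiers (UMIs, each standing for 1 captured transcript) from 500 or more genes, with no more than 20% of them mitochondrial. It also had to hold at least 3 of the 6 GABAergic forebrain genes Gad1, Gad2, Dlx1, Dlx2, Dlx5 and Dlx6os1, at least 3 UMIs of the young-neuron genes Tubb3, Stmn2 and Dcx together, at most 1 UMI of the division genes Mki67, Top2a and Cenpf, no Sp8 UMI and at least 1 UMI of Six3 or Foxp2. These gates kept 268 of 21126 filtered barcodes, 167 of 11024 in the WT library and 101 of 10102 in the Mut library. Because these genes chose the cells, their values below are a description.

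The study compared cortex of WT mice with cortex of mice labelled Mut for Katnal2, a gene of the katanin family of microtubule-severing proteins. Each genotype has 1 library on the 10x Genomics droplet platform. The design text names 3 replicates per sample, but every barcode of a library carries the same suffix, so each genotype was treated as 1 sample. Both groups shared the same handling: cortex was dissected, stored at -80 °C, dissociated in trypsin (0.25%, 30 min) and then in type-II collagenase (0.2%, over 4 h), passed through a 70 µm strainer and sorted by fluorescence before capture. The strain, the sex of the animals, the mutated part of Katnal2, the number of animals in a library and the gate of the sort are not given in the sources used here. With 1 library per genotype no test of WT against Mut exists, and all intervals below are 95% intervals that cover counting error only.

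Six3 and Foxp2 encode transcription factors of the embryonic ventral forebrain. Six3 acts in cells of the lateral ganglionic eminence and is needed for the Drd2-expressing neurons of the indirect striatal pathway. Foxp2 is carried by striatal projection neurons, by deep-layer cortical neurons and by intercalated cells of the amygdala. Sp8, whose absence the rule asked for, marks neuroblasts of the dorsal lateral ganglionic eminence that travel to the olfactory bulb and a class of interneurons. Mature striatal projection neurons are known by Ppp1r1b (DARPP-32), by Drd1 with Tac1 and Pdyn in the direct pathway and by Drd2 with Penk and Adora2a in the indirect pathway. In the mouse genome (GRCm38), Six3 lies on chromosome 17 (85613608 to 85629302, plus strand) and Foxp2 on chromosome 6 (14901349 to 15441977, plus strand).

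The WT library held 93664707 UMIs and the Mut library 97891513. The selected neurons were shallow. Their median was 3064 UMIs and 1542 genes in WT and 3678 UMIs and 1826 genes in Mut, against 6446 and 7625.5 UMIs over all filtered barcodes. Both libraries held cells with Xist and cells with Y-chromosome RNA. Female cells were 37.0% of the sexed neurons of WT and 40.6% of those of Mut, against 47.3% and 65.6% of all sexed filtered barcodes. The libraries shared 39 filtered barcodes. None of these was a selected neuron in both libraries, and 1 selected WT neuron had a barcode that also passed the filters in Mut. Katnal2 itself gave 2 UMIs in the WT neurons and 0 in the Mut neurons, where 0 of 101 cells allows a share of up to 2.97%. Such a limit is 3 cells of the total, a floor for counting error that lies under the upper bound of an exact 95% interval, and it refers to the share of cells with a UMI, not of cells that express the gene. In Sp8-positive GABAergic neurons it gave 8 UMIs in WT and 10 in Mut, so its RNA does not check the genotype labels at this depth.

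In WT, 40 cells had Six3 alone, 99 had Foxp2 alone and 28 had both. In Mut the counts were 32, 56 and 13. Among all Sp8-negative GABAergic neurons (452 in WT, 284 in Mut), independent detection of the genes would give 19.1 cells with both in WT and 10.9 in Mut. The counts of 28 and 13 cells with both genes were above these values, but only slightly so in Mut. The expected values take no account of depth or doublets, and the excess was not tested. A cell with UMIs of 1 gene alone may hold RNA of the other that was not captured, and the rule admits either gene. Many cells entered on little evidence: 49 WT and 33 Mut cells had exactly 1 UMI of the pair, 32 and 18 had 2, and 86 and 50 had at least 3. The highest Six3 counts were 21 UMIs in a WT cell and 20 in a Mut cell, and the highest Foxp2 counts were 12 and 13. Six3-only cells had a median of 5 Six3 UMIs in WT and 3 in Mut, and Foxp2-only cells had a median of 2 Foxp2 UMIs in both libraries.

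**Figure D1:**
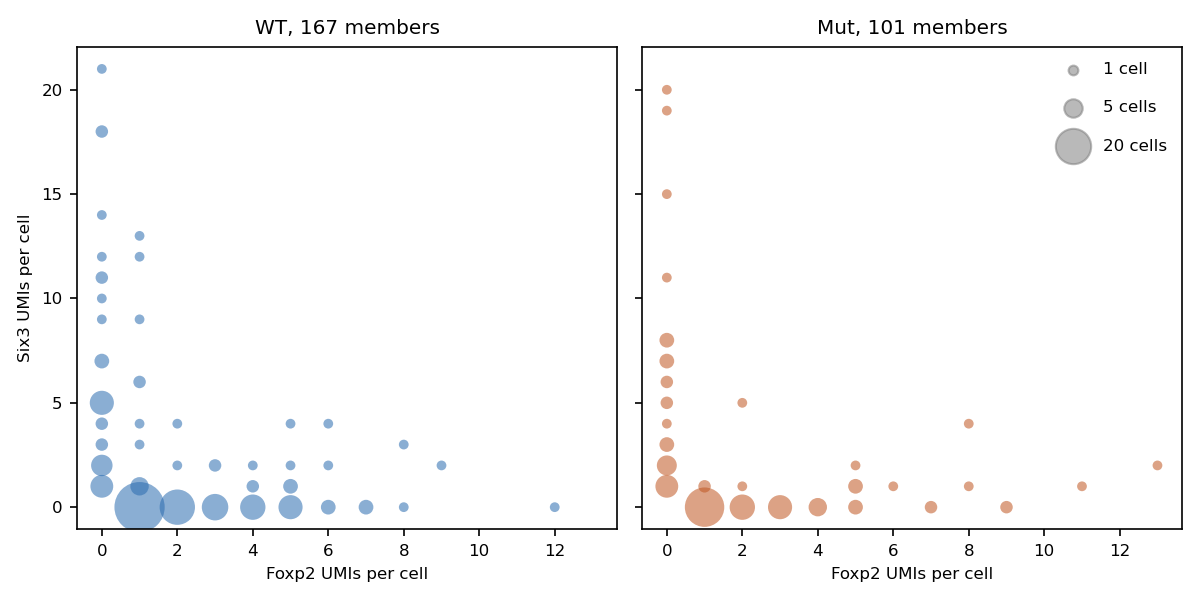
Six3 UMIs (y axis) against Foxp2 UMIs (x axis) in each selected neuron of the WT library (167 cells) and the Mut library (101 cells); the area of a bubble gives the number of cells at that pair of counts. On the axes lie 40 WT and 32 Mut cells with Six3 alone and 99 and 56 with Foxp2 alone.

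Free RNA in droplets can give a UMI to a cell that does not make it. The share of barcodes with a Six3 or Foxp2 UMI was therefore also read in cells outside the selection. Among microglia, which had medians of 6282 and 7465.5 UMIs, 1.32% had a Six3 UMI in WT and 1.06% in Mut. For Foxp2 the microglial shares were 1.49% and 2.88%. Among Sp8-positive GABAergic neurons, with medians of 3666.5 and 3994 UMIs, Six3 was at 1.25% and 1.17% and Foxp2 at 9.70% and 11.7%. Oligodendrocyte precursors, with medians of 5947 and 6281 UMIs, had shares above the microglial ones. These were 4.98% and 5.80% for Six3 and 12.6% and 14.3% for Foxp2. Sp8-negative GABAergic neurons stood above all of these references, at 15% and 15.8% for Six3 and 28.1% and 24.3% for Foxp2. In Sp8-positive neurons the Six3 share was thus close to the microglial one, while the Foxp2 share was above it.

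Some genes outside the rule changed across its threshold in steps. Levels are given as CPM, the UMIs of a gene per 1000000 UMIs summed over the cells of a population in a library. Bcl11b, which encodes the striatal and deep-layer transcription factor CTIP2, stood at 193 CPM in WT and 143 CPM in Mut in the otherwise identical neurons with no Six3 or Foxp2 UMI (285 and 183 cells). It stood at 295 and 327 CPM in cells with 1 UMI and at 820 and 816 CPM in cells with at least 3. Tshz1, a transcription factor gene of the dorsal lateral ganglionic eminence and of amygdala intercalated cells, went from 151 and 158 CPM outside the threshold to 355 and 334 CPM at 1 UMI and 711 and 616 CPM at 3 or more. Etv1, which marks olfactory bulb neuroblasts, ran the other way, from 306 and 296 CPM outside to 80.7 and 64.0 CPM at 3 or more. Not every gene changed so. Sox11, a transcription factor gene, was at 3355 and 3303 CPM outside and at 3713.5 and 3544 CPM at 3 or more. In WT, Meis2, a homeobox gene, was at 1599 CPM outside and 1595 CPM at 1 UMI. The gate on the 6 GABAergic genes made no such step for Bcl11b: it was at 745 and 817 CPM in the 36 WT and 13 Mut cells with only 2 of these genes, at 656 and 801 CPM with 3, and at 586 and 542 CPM with 4 to 6.

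The label of striatal-type neurons was met in part only. Meis2, a homeobox gene of the lateral ganglionic eminence, was detected in 98.8% of the WT cells and 99.0% of the Mut cells, at 2601 CPM and 2262 CPM, but it was as common in Sp8-positive neurons (98.6% and 98.4%, at 1890 and 1982 CPM). Bcl11b was detected in 70.1% and 70.3%, at 607 CPM (549 to 669) and 614 CPM (547 to 688). Its share in microglia was 1.98% and 1.52%. Foxp1, a forkhead gene of striatal projection neurons, was detected in 29.3% and 31.7% of the cells, a share close to the microglial 24.8% and 33.0%, but its level of 181 and 234 CPM was above the microglial 49.0 and 62.7 CPM. Thinned to 2000 UMIs per cell, Bcl11b stayed in 57.9% and 51.0% of the neurons and Foxp1 in 19.7% and 22.9%.

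Ppp1r1b gave 1 UMI in the 167 WT cells and 2 in the 101 Mut cells. Drd1, the dopamine receptor of the direct pathway, gave 1 UMI in WT and 0 in Mut, and Pdyn, the dynorphin precursor, gave 0 in both, where 0 of 167 WT cells allows a share of cells with a UMI of up to 1.80%. Ikzf1, a late striatal transcription factor, gave 0 and 0. These definers of mature striatal neurons were therefore at or near 0 in both libraries. Indirect-pathway genes were sparse as well: Drd2 was found in 6 WT cells and 3 Mut cells (9 and 6 UMIs), Penk, the enkephalin precursor, in 3 and 3 (4 and 8 UMIs), and Adora2a, an adenosine receptor, in 4 and 2 (9 and 2 UMIs). Tac1, the substance P precursor, gave 0 UMIs in WT and 8 in Mut, in 3 cells. Given these values, the cells are called Six3 or Foxp2 GABAergic neurons below.

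They were immature. Sox11, a transcription factor of newborn neurons, was present in 98.8% of the WT and 100% of the Mut cells, Sox4 in 100% and 99.0%, and Igfbpl1, a neuroblast gene, in 97.0% and 95%. Slc32a1, the vesicular GABA transporter, was found in 21.6% and 26.7%. Snap25, a core synaptic fusion protein, was found in 12.6% and 14.9%, and Rbfox3, which encodes the mature-neuron antigen NeuN, in 5.39% and 1.98%. Markers of other neuron types were low: Lhx6, which defines interneurons of the medial ganglionic eminence, gave 0 UMIs in both libraries, Sst gave 7 and 1, and Th, which marks dopaminergic olfactory bulb cells, gave 0 and 0. The summed level of the 9 excitatory-neuron genes was 18.2 CPM in WT and 16.2 CPM in Mut, and that of the 6 cholinergic genes was 1.52 and 2.02 CPM. Compared with Sp8-positive neurons, 16 of 22 measured maturing neuron and synapse genes were higher in both libraries and 2 lower. Past 2-fold, 1 was higher and 0 were lower, against 1.44% and 0.806% of all genes. Their median log2 differences were 0.43 in WT and 0.46 in Mut, against -0.01 and 0.01 over all genes. Of 13 immature neuron genes 5 were higher and 5 lower.

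**Figure D2:**
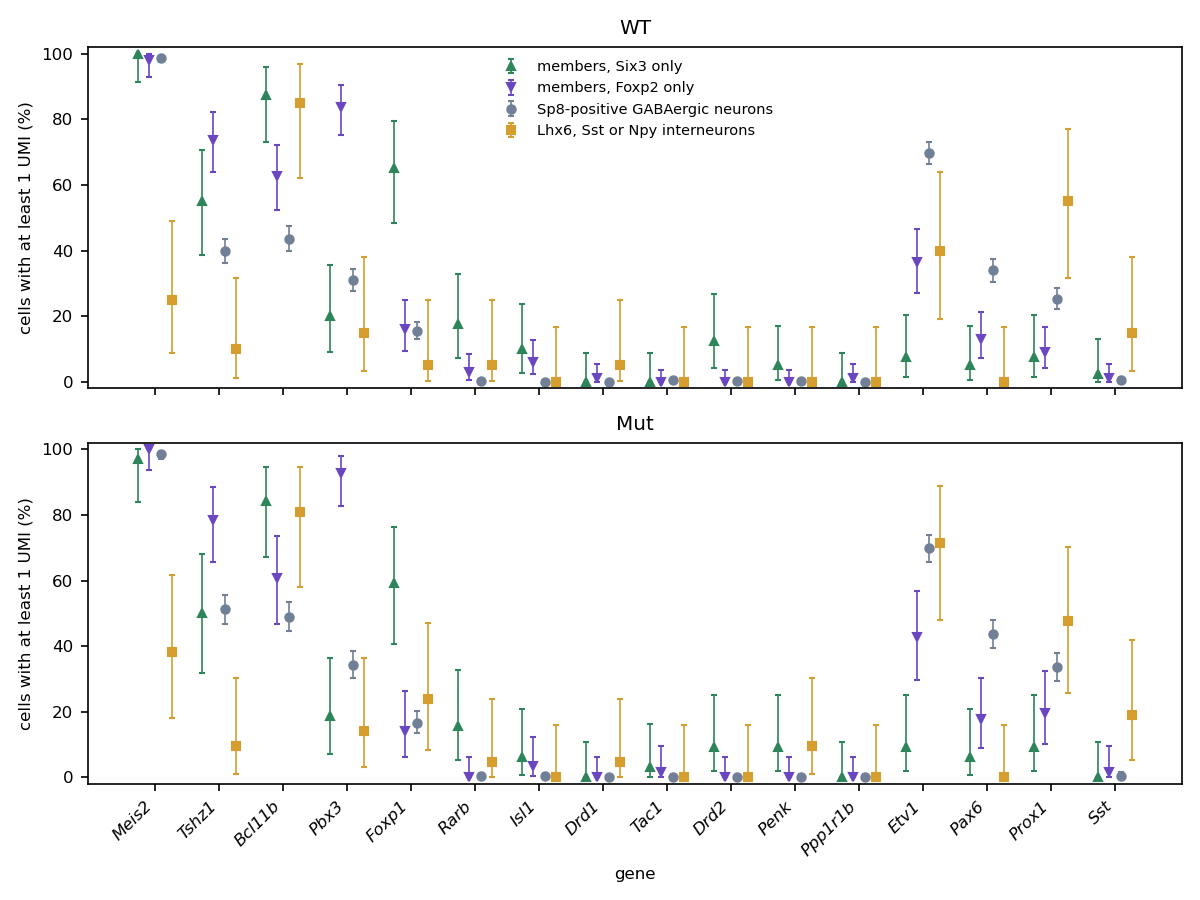
Percent of cells with at least 1 UMI (y axis) of 16 genes (x axis) in Six3-only, Foxp2-only, Sp8-positive and interneuron cells, with exact 95% binomial bars, WT and Mut in separate panels. Meis2 is near 100% in the first 3 populations, Foxp1 and Pbx3 separate Six3-only from Foxp2-only cells, and Ppp1r1b is near 0 in all 4.

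RNA of glia and vessel cells was present in some barcodes. Over 41 marker genes of astrocytes, the oligodendrocyte lineage, microglia, vessel cells and fibroblasts, the median was 1 UMI per cell in both libraries. However, 15 WT cells (8.98%) and 12 Mut cells (11.9%) carried at least 20 such UMIs, and these cells held 26.3% and 33.6% of the UMIs of their set. Sp8-positive neurons had like shares of 8.31% and 9.13%. Foxp2-only cells carried such RNA more often (11 of 99 and 7 of 56) than Six3-only cells (1 of 40 and 2 of 32). Every comparison was therefore also made without these barcodes, an alternative added after the data were seen.

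Against Sp8-positive GABAergic neurons (722 in WT, 515 in Mut), the Six3 or Foxp2 neurons were set apart by a small group of genes. Of 7664 genes with at least 100 UMIs, 72 (0.939%) were at least 2-fold higher in both libraries and 68 (0.887%) at least 2-fold lower, 1.83% together. Fold changes here and below are on the scale of log2(CPM + 5). With 1 library per genotype these differences describe the libraries and were not tested.

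Among the higher genes, Pcp4, a calmodulin-binding peptide gene, was at 309 CPM in WT and 364 CPM in Mut against 18.7 and 14 CPM in Sp8-positive cells. Gucy1a1, a subunit of the nitric oxide receptor guanylyl cyclase, was at 232 and 247 CPM against 12.4 and 18.8. Zfhx3, a zinc-finger homeobox gene, was at 350 and 331 CPM against 28.2 and 34.3. Lypd1, a GPI-anchored protein gene with enriched expression in striosomes, was at 112 and 119 CPM against 5.71 and 4.79. Syt1, the calcium sensor of synaptic vesicles, was at 159 and 111 CPM against 8.56 and 7.58. Tle4, a Groucho-family corepressor, was at 164 and 238 CPM against 22.5 and 26.3. Six3os1, the antisense transcript beside Six3, was at 124 and 113 CPM against 1.59 and 0.798 and cannot be counted as separate from the rule. Jph4, Pou3f1 and the unnamed transcript Gm26871 completed the 10 highest, each with a log2 difference of at least 2.57 in both libraries.

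Among the lower genes, Synpr, a synaptic vesicle protein gene, was at 18.2 and 22.2 CPM against 135 and 132. Htr3a, the serotonin receptor channel of caudal interneurons, was at 1.52 and 2.02 CPM against 44.1 and 27.9. Prox1, a homeobox gene of the same interneurons, was at 24.3 and 32.3 CPM against 87.9 and 110. Adarb2, also known from caudal interneurons, was not lower, at 174 and 182 CPM against 108 and 129. Tcf4, a broadly expressed helix-loop-helix gene, was at 687 and 772 CPM against 2065 and 2259. Parm1, Cacng5, Sln, St18, Cdca7l and Rgs16 were the remaining genes of the lowest 10. All 20 genes stayed past 2-fold in both libraries when barcodes with glial or vessel RNA were left out.

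By list, counting genes with at least 20 UMIs, 5 of 13 measured striatal projection neuron genes were at least 2-fold higher than in Sp8-positive cells in both libraries and 0 were lower, with a median log2 difference of 0.66 in WT and 0.73 in Mut, against -0.01 and 0.01 over all 11533 genes with as many UMIs, of which 1.44% were higher and 0.806% lower. The 5 were Bcl11b (154 and 156 CPM in Sp8-positive cells), Foxp1 (45 and 51.5 CPM), Zfp503, a zinc-finger gene of the lateral ganglionic eminence (54.6 and 64.7 CPM against 1.27 and 3.99), the retinoic acid receptor gene Rarb (19 and 8 UMIs) and Gnal, which encodes a G protein subunit of striatal neurons (16 and 15 UMIs). Of 25 regional transcription factors, 7 were higher and 5 lower. Pbx3 (616 and 487 CPM against 160 and 164), Tshz1 (567 and 483 CPM against 171 and 221) and Foxp4 (50.1 and 42.4 CPM against 6.34 and 5.19) were higher. So were Foxp1, Isl1, Ebf1 and Six3os1, the last of which cannot be counted as separate from the rule. Etv1, Pax6, Zic1 and Zic4 were among those lower. Pax6, a paired-box gene of olfactory bulb neuroblasts, was at 33.4 and 40.4 CPM against 142 and 190. Of the cortical interneuron list 1 of 13 was higher and 2 were lower, and of the olfactory bulb list 1 of 10 was higher and 3 were lower. Of the microglial list, 6 of 8 genes were lower, and the summed level of the list was 15.2 and 16.2 CPM against 221 and 168 CPM in Sp8-positive cells, but without barcodes rich in glial or vessel RNA 0 of its genes had enough UMIs in the 2 populations to be counted. Of the endothelial and mural list 3 of 8 were higher, and 0 of 2 were once barcodes with such RNA were left out.

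Lhx6, Sst or Npy interneurons were rare, with 20 cells in WT and 21 in Mut, and so only large differences could be read. Of 2472 genes, 57 (2.31%) were at least 2-fold higher in the Six3 or Foxp2 neurons in both libraries and 25 (1.01%) were lower, 3.32% together. Meis2 was at 236 and 282 CPM in the interneurons, Pbx3 at 39.3 and 26.4 CPM and Tshz1 at 19.6 and 35.2 CPM, all far under the levels given above. Zfhx3 had 0 UMIs in the WT interneurons and 17.6 CPM in the Mut interneurons. The exact lower bound of its ratio, Six3 or Foxp2 neurons over interneurons, was 9.59 in WT. In the interneurons Adarb2 was at 9.82 and 26.4 CPM, under the levels given above. On the other side, St18, a zinc-finger gene, was at 12.1 and 18.2 CPM against 442 and 449 in the interneurons, and Sox5 at 44.0 and 70.7 CPM against 363 and 343. Pcp4 was also lower than in the interneurons, where it was at 1238 and 1478 CPM, but it was found in only 3 of the 20 WT interneurons. Of the 20 genes chosen by the naming rule, 19 stayed past 2-fold without barcodes carrying glial or vessel RNA. Rgs5, a pericyte gene, did not.

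Within the Six3 or Foxp2 neurons, Six3-only and Foxp2-only cells differed by at least 2-fold in a small share of genes, which was not tested. Six3-only cells were also deeper, with medians of 3782.5 UMIs in WT and 4619 in Mut against 2808 and 3463. Of 3470 genes with at least 50 UMIs, 35 (1.01%) were at least 2-fold higher in Six3-only cells in both libraries and 81 (2.33%) were lower, 3.34% together. The median over all these genes was -0.00 in WT and -0.03 in Mut. Striatal projection neuron genes lay on the Six3 side: 5 of 10 were past 2-fold in that direction and 0 in the other, with a median of 1.44 in WT and 1.48 in Mut. Of all 6706 genes with at least 20 UMIs, the minimum for lists, 1.16% were past 2-fold on the Six3 side and 3.43% on the Foxp2 side.

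Bcl11b was at 1249 and 1172 CPM in Six3-only cells and at 348 and 245 CPM in Foxp2-only cells. Foxp1 was at 502 and 569 CPM against 75.6 and 35.0, and was found in 65.0% and 59.4% of Six3-only cells against 16.2% and 14.3% of Foxp2-only cells. The Foxp2-only share did not exceed the microglial share of 24.8% and 33.0%, but microglia were deeper, with medians of 6282 and 7465.5 UMIs. The Foxp2-only level was above the microglial 49.0 CPM in WT and under the microglial 62.7 CPM in Mut. Pcp4 was at 932 and 835 CPM against 55.5 and 27.3, Gucy1a1 at 714 and 493 CPM against 58.0 and 31.2 and Zfhx3 at 926 and 719 CPM against 134 and 117. These 3 genes were among those that set the whole selection apart from Sp8-positive cells, and Six3-only cells held their higher levels. Calb1, the calcium buffer of matrix neurons, was at 159 and 104 CPM in Six3-only cells, in 30.0% and 40.6% of them. It had 0 UMIs in all 99 and 56 Foxp2-only cells. With a floor of 3 UMIs for that count of 0, it was at least 21.0-fold higher in WT and at least 8.94-fold higher in Mut. These bounds leave out the counting error of the Six3-only level. Id4, an inhibitory helix-loop-helix gene, was at 926 and 650 CPM against 85.7 and 160. Nnat, an imprinted membrane protein gene, was at 6902 and 5593 CPM against 1908 and 2005.

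Several sparse striatal genes were detected mostly in Six3-only cells. Drd2 was found in 12.5% and 9.38% of Six3-only cells (5 of 40 and 3 of 32) and in no Foxp2-only cell, where 0 of 99 and 0 of 56 allow shares of cells with a UMI of up to 3.03% and 5.36%. Penk was found in 2 of 40 and 3 of 32 Six3-only cells and in no Foxp2-only cell. Rarb was found in 17.5% and 15.6% against 3.03% and 0%. Gnal was found in 17.5% and 15.6% against 2.02% and 3.57%. These shares rest on 2 to 7 Six3-only cells per library. Adora2a was placed otherwise, with 9 UMIs in 4 Foxp2-only cells of WT and 0 in the Six3-only cells, and in Mut with 1 UMI in Six3-only cells and 0 in Foxp2-only cells. Of the direct pathway list, 2 genes could be counted, of which 0 were past 2-fold on the Six3 side and 1, Ebf1, on the Foxp2 side. Thinning to 2000 UMIs kept the order: Drd2 was then in 13.9% and 6.45% of the Six3-only cells kept and in none of the Foxp2-only cells. Gria1 (an AMPA receptor subunit, 106 and 151 CPM against 15.1 and 11.7) and the axon guidance receptor gene Robo1 (145 and 122 CPM against 20.2 and 7.79) were also higher in Six3-only cells, as were Lypd1, Pnmal2 and Lrpprc.

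Foxp2-only cells had their own genes. Pbx3, a homeobox cofactor gene, was at 824 and 802 CPM in them and at 66.1 and 46.4 CPM in Six3-only cells, and was found in 83.8% and 92.9% against 20% and 18.8%. Tshz1 was at 560 and 596 CPM against 258 and 174. Prokr2, the receptor that guides olfactory bulb neuroblasts, was at 144 and 70.1 CPM against 6.61 and 5.80. Zfp704, a zinc-finger gene, was at 592 and 530 CPM against 152 and 92.8. Etv1 (161 and 210 CPM against 39.7 and 29.0) and Adarb2 (229 and 265 against 59.5 and 40.6) were also higher in Foxp2-only cells. Robo2 was on this side too, with log2 values of -3.33 and -1.72 for Six3-only against Foxp2-only cells, opposite to Robo1. The cell-adhesion genes Pcdh9, Sdk2 and Cadm2 and the genes Dusp4 and Zadh2 were also among the 10 lowest in Six3-only cells. Ebf1 and Itm2a complete that list but were found in only 4.04% and 1.79%, and 8.08% and 8.93%, of Foxp2-only cells.

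Cells with both genes were few, 28 in WT and 13 in Mut. In each library 3 of them carried at least 20 glial or vessel UMIs, with 21.9% and 47.6% of the UMIs of the class. Scrublet ranked 10.7% and 23.1% of the class among the doublets. In all cells with both genes, the Tshz1 level of 1015 and 854 CPM was above that of either single class. Their Pbx3 level of 620 and 412 CPM lay between those of the single classes. Foxp1, at 117 and 137 CPM, was far under the Six3-only level. Regional transcription factors as a list held 2 of 21 past 2-fold on the Six3 side and 6 on the Foxp2 side. The 2 were Foxp1 and Six3os1, and Six3os1 cannot be counted as separate from the rule. The olfactory bulb list held 0 of 8 on the Six3 side and 3 on the Foxp2 side, and the axon guidance list 3 of 12 and 2. Over all genes with at least 20 UMIs, 1.16% were past 2-fold on the Six3 side and 3.43% on the Foxp2 side. The 20 genes chosen by the naming rule stayed past 2-fold in both libraries without barcodes carrying glial or vessel RNA, while the number of genes past 2-fold went from 116 to 76.

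**Figure D3:**
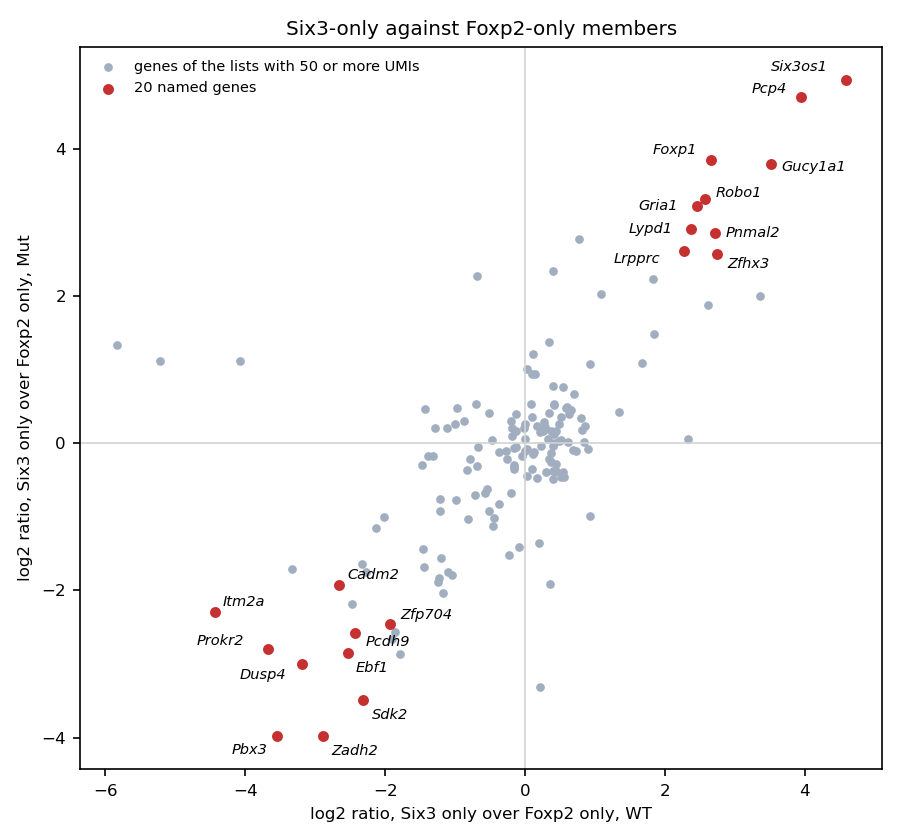
log2 ratio of Six3-only to Foxp2-only cells in WT (x axis) and in Mut (y axis) for the genes of the lists with at least 50 UMIs (grey, without Six3 and Foxp2) and the 20 named genes (red). Named genes lie in the upper right (Pcp4, 3.95 and 4.70) or lower left (Pbx3, -3.54 and -3.97) corner in both libraries.

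The Six3 or Foxp2 neurons were a smaller share of the Mut library. They made up 1.51% (1.30 to 1.76) of filtered barcodes in WT and 1% (0.815 to 1.21) in Mut. The Mut to WT ratio was 0.660 (0.510 to 0.850). GABAergic neurons as a whole were also a smaller share, 10.6% (10.1 to 11.2) against 7.91% (7.39 to 8.45). Within GABAergic neurons the shares were 14.2% (12.3 to 16.4) and 12.6% (10.4 to 15.1), and the ratio of 0.889 (0.687 to 1.14) did not leave out 1. Within GABAergic neurons, a difference beyond counting error was therefore not detectable at these cell numbers.

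Depth and sex moved with these shares. At 2000 UMIs per barcode the ratios were 0.605 (0.438 to 0.828) of filtered barcodes and 0.787 (0.571 to 1.08) of GABAergic neurons. Among female cells the share of filtered barcodes was 1.05% in WT and 0.534% in Mut, which gives 0.510 (0.303 to 0.847). Among male cells it was 1.60% and 1.49%, which gives 0.931 (0.616 to 1.39). The Mut library had the larger female share among all filtered barcodes (65.6% against 47.3%), and the difference between the sexes was not tested. Of GABAergic neurons, the ratio was 0.700 (0.416 to 1.16) in female and 0.978 (0.647 to 1.46) in male cells. Six3-only cells were 3.41% of GABAergic neurons in WT and 4.01% in Mut, Foxp2-only cells 8.43% and 7.01%, and cells with both 2.39% and 1.63%. All 3 ratios had intervals that include 1.

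**Figure D4:**
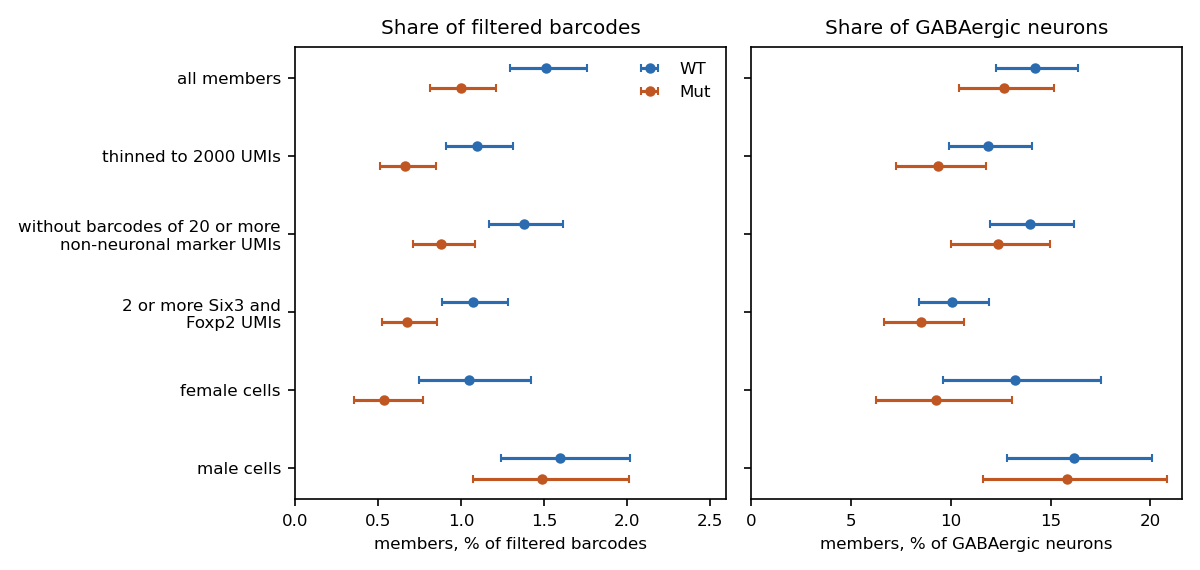
Six3 or Foxp2 neurons as percent of filtered barcodes (left) and of GABAergic neurons (right) in the WT (blue) and Mut (orange) libraries under 6 settings, with exact 95% binomial bars. Of filtered barcodes Mut is lower in every row, least so in male cells (1.60% and 1.49%), and of GABAergic neurons the bars overlap.

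Gene levels in the Mut neurons were mostly close to those in WT. Of 2069 genes with at least 100 UMIs, 136 (6.57%) differed by at least 1.5-fold, 96 (4.64%) higher and 40 (1.93%) lower in Mut, with a median log2 ratio of 0.04. Under TMM scaling 53 genes were higher and 58 lower, so the balance of directions rests on the scaling. TMM moved every Mut to WT log2 ratio by -0.12. Without barcodes of at least 20 glial or vessel UMIs, 56 of 1400 genes (4.00%) differed, 32 (2.29%) higher and 24 (1.71%) lower. In Sp8-positive neurons under the same setting the figure was 77 of 5938 (1.30%), from many more UMIs per gene. At 20 UMIs, the minimum for the lists below, 11.3% of 7322 genes were past 1.5-fold higher in Mut and 6.16% past it lower, with 57.9% above 0 and a median of 0.08. Without those barcodes 10.2% of 5721 genes were higher by that much and 6.08% lower, with 56.1% above 0 and a median of 0.07.

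The largest differences rested mostly on single cells. Gnrh1, the gonadotropin-releasing hormone gene, gave 1043 UMIs in Mut and 0 in WT, and 1042 of them were in 1 Mut cell. Cldn5, an endothelial tight-junction gene, gave 414 UMIs in WT and 4 in Mut, with 258 in 1 WT cell, and Bsg gave 735 and 138, with 469 in 1 WT cell. Igfbp7 and Itm2a gave 124 and 100 UMIs in WT and 7 and 7 in Mut, each with 67 in 1 WT cell. Rgs5 had 96 of its 97 Mut UMIs in 1 cell and 56 of its 73 WT UMIs in 1 cell. Gnrh1 is known from a hypothalamic neuron type, and Cldn5, Igfbp7 and Rgs5 are known from vessels. Without barcodes rich in glial or vessel RNA, log2 ratios went from -1.98 to -0.19 for Bsg and from -3.03 to -0.02 for Itm2a. The others then came to few UMIs: Cldn5 had 3 in WT and 4 in Mut, Igfbp7 0 and 2 and Gnrh1 0 and 0. Astrocyte genes moved with them, 8 of 8 being higher in Mut with a median log2 ratio of 0.97, and 2 of 4 higher with a median of -0.15 once those barcodes were left out.

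Of the 20 genes chosen by the naming rule, 12 kept their direction without those barcodes, 7 of them past 1.5-fold and 6 with an interval that left out 1. Rpl29, a ribosomal protein gene, was lower in Mut: 531 UMIs in 103 cells of WT and 79 UMIs in 27 cells of Mut, a log2 ratio of -2.30. Without barcodes rich in glial or vessel RNA it was at 813 and 155 CPM, a log2 ratio of -2.35, and in Sp8-positive neurons the ratio was -2.21. Its free RNA was also lower, at 621 CPM in WT and 311 CPM in Mut, and its ratio by sex was -0.96 (female) and -4.08 (male). Genes of ribosomal proteins have processed copies elsewhere in the genome, and whether reads of Rpl29 were split among them was not tested. Tomm22, a subunit of the mitochondrial outer-membrane import channel, was lower in Mut by -1.25 (106 and 32 UMIs), by -1.37 without those barcodes and by -1.13 in Sp8-positive neurons. Both differences were thus seen in Sp8-positive neurons too.

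The other 4 had ratios between -0.14 and 0.22 in Sp8-positive neurons without those barcodes. Slc4a4, a bicarbonate transporter gene also strong in astrocytes, had a log2 ratio of 1.29 (21 and 37 UMIs) without those barcodes, against 0.18 in Sp8-positive cells. With all barcodes kept, the GABAergic neurons that were in none of the other populations (265 in WT, 162 in Mut) had 98 and 233 Slc4a4 UMIs, a ratio of 1.4, so a difference of this size was seen outside the Six3 or Foxp2 neurons as well. Fam171a2 had 1.08 (33 and 49 UMIs) against 0.22, and Setbp1, a SET-binding protein gene, 0.98 (34 and 47 UMIs) against -0.02. Nsd3, a histone methyltransferase gene, had -0.80 (61 and 23 UMIs) against -0.14. By sex, before that step, Slc4a4 had 0.23 in female and 1.64 in male cells and Setbp1 had 0.23 and 1.28. These values rest on at most 61 UMIs per library without those barcodes, and their difference from Sp8-positive neurons was not tested.

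**Figure D5:**
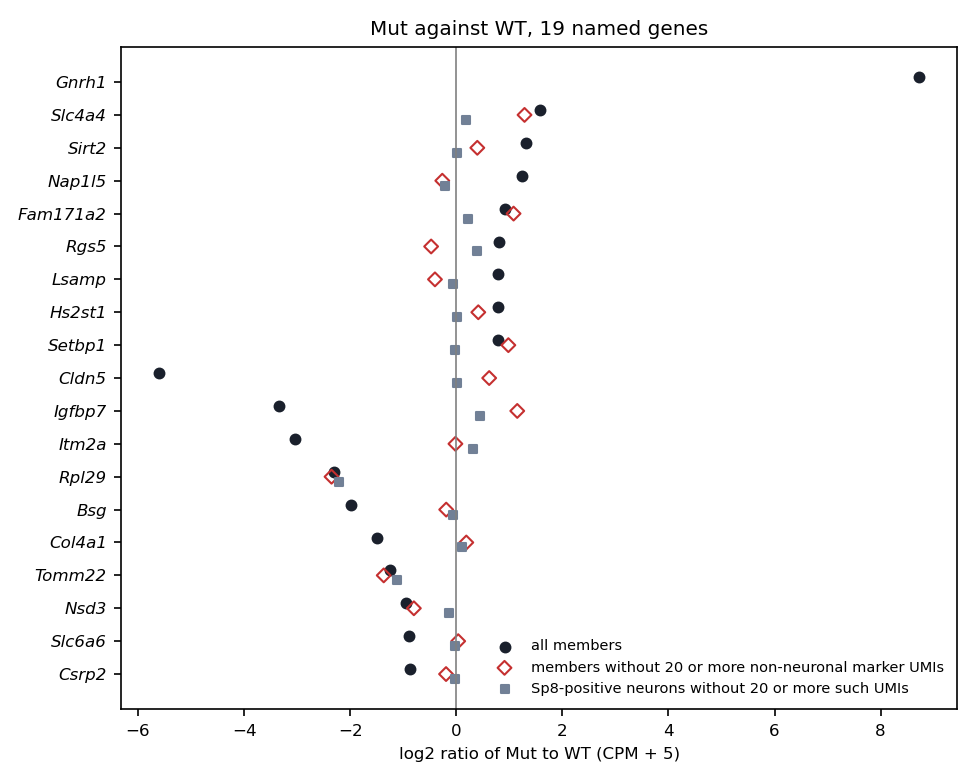
log2 ratio of Mut to WT (x axis, CPM + 5) for 19 of the named genes (rows) in all Six3 or Foxp2 neurons (black), in those without barcodes rich in glial or vessel RNA (open red diamonds) and in Sp8-positive neurons under the same setting (grey squares). Cldn5 goes from -5.60 to 0.62 between the first 2, and Rpl29 stays between -2.21 and -2.35 in all 3.

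Immediate early and heat shock genes were mostly higher in Mut: 12 of 14 measured, 4 of them by at least 1.5-fold. Of the 2 lower genes, 1 was past 1.5-fold, at a log2 ratio of -1.72. The median log2 ratio was 0.37, against 0.08 over all genes with at least 20 UMIs. Of all those genes, 57.9% were above 0, 11.3% past 1.5-fold higher and 6.16% past it lower. Fos, an activity-induced transcription factor, was at 240 CPM in WT and 424 CPM in Mut and was found in 17.4% and 35.6% of cells, or 13.2% and 22.9% at 2000 UMIs per cell. Egr1, another such factor, was at 146 and 352 CPM and found in 16.8% and 33.7%, or 9.87% and 20.8% when thinned, and Btg2, an antiproliferative early-response gene, was at 114 and 232 CPM. Without barcodes rich in glial or vessel RNA 11 of 11 were higher, 6 past 1.5-fold, with a median of 0.65; Fos then had a ratio of 1.13 (29 and 45 UMIs) and Egr1 of 1.68 (31 and 71 UMIs). In Sp8-positive neurons under that setting 10 of 13 were higher, with a median of 0.21, against 61.5% above 0 and a median of 0.07 over all 9859 genes. Free RNA held more of these transcripts than the neurons did, Fos at 813 and 1102 CPM and Egr1 at 549 and 580 CPM, and by sex the Fos ratio was -0.27 in female and 0.59 in male cells. The parts of free RNA, of the long dissociation and of sex in this difference were not tested.

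Of the mitochondrially encoded genes 10 of 13 were lower in Mut, with a median log2 ratio of -0.28. Without barcodes rich in glial or vessel RNA 11 of 12 were lower with a median of -0.43, and in Sp8-positive neurons 11 of 13 with a median of -0.37. The median mitochondrial share per cell was 3.63% in WT and 2.70% in Mut. The same direction was thus seen in both populations.

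The microtubule and trafficking lists had medians near that of all genes. Genes for microtubule severing, tubulins and microtubule-associated proteins held 20 of 30 higher in Mut with a median of 0.16, 5 of them past 1.5-fold and 1 lower by that much. Without barcodes rich in glial or vessel RNA this was 19 of 26 with a median of 0.11, 1 of them past 1.5-fold. Vesicle trafficking genes held 25 of 51 higher with a median of -0.00, 5 of them past 1.5-fold and 0 lower by that much. Without those barcodes 18 of 45 were higher with a median of -0.05, 6 of them past 1.5-fold. The 7 measured glutamate receptor genes were all higher in Mut, with a median of 0.37 and 3 past 1.5-fold. Over all genes 57.9% were above 0 and 11.3% past 1.5-fold higher. Without those barcodes 5 of 6 were higher, 3 of them past 1.5-fold, against 10.2% of all genes. Among them Grm5, a metabotropic receptor, had 30 and 47 UMIs (a ratio of 0.99, but -0.65 in female and 1.4 in male cells) and Gria1 had 30 and 37 (0.66). Genes of GABA synthesis, transport and receptors were even, 6 of 10 higher with a median of 0.04.

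Among identity genes, Bcl11b had a log2 ratio of 0.02, Meis2 -0.20, Tshz1 -0.23, Pbx3 -0.34 and Foxp1 0.37, all within 1.5-fold. Without barcodes rich in glial or vessel RNA Foxp1 was past it, at 0.64. Regional transcription factors held 12 of 22 higher in Mut with a median of 0.05 and a range of -1.45 to 1.02. Of these 22 genes, 2 were past 1.5-fold higher, Nr2f1 among them, and 2, Ebf1 and Nr2f2, were past it lower. Over all genes with at least 20 UMIs 57.9% were above 0, 11.3% past 1.5-fold higher and 6.16% past it lower. Ebf1 rests on few cells, with 40 UMIs in 4.04% of the WT Foxp2-only cells and 8 UMIs in 1.79% of those of Mut. Of 18 regional genes measured without barcodes rich in glial or vessel RNA, 2 were past 1.5-fold higher and 1 past it lower. Over all genes under that setting these shares were 10.2% and 6.08%, and 56.1% of genes were above 0. Of the striatal projection neuron genes 8 of 10 were higher with a median of 0.25, or 6 of 9 with a median of 0.04 without barcodes rich in glial or vessel RNA. Erbb4, the neuregulin receptor of migrating interneurons, was lower in Mut, at 105 CPM (81.4 to 132) in WT and 50.5 CPM (32.7 to 74.6) in Mut, with a ratio of -0.98, and of -1.06 without those barcodes. In Sp8-positive neurons under that setting it was -0.51. Of the 8 measured cortical interneuron genes, Erbb4 among them, 4 were higher in Mut and 4 lower, 0 past 1.5-fold higher and 2 past it lower. Of the 5 measured retinoid genes 1 was higher, past 1.5-fold, and 4 were lower, 1 of them past it. The median of the retinoid genes was -0.31, and the 1 higher gene was Aldh1a3. Aldh1a3, a retinoic acid synthesis enzyme, was at 44.0 CPM (29.5 to 63.2) and 99.0 CPM (73.3 to 131), but its 49 Mut UMIs came from 9 cells, against 29 UMIs from 15 cells in WT, and its ratio was 1.47 in female and 0.04 in male cells.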

How the data were processed

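Raw UMI counts per gene and barcode were deposited by the authors, with no normalization, as Cell Ranger matrices of all barcodes (version 4 per the file headers). Cell Ranger, STAR and GRCm38 are named in the submitters' processing notes, with settings not given in the sources used here. All gates described in the results were applied to each library. For each library the UMIs of the chosen cells were added up and scaled to CPM, and ratios were taken as log2 of CPM with 5 added. Genes entered with at least 100 UMIs (50 within the selection, 20 for lists). A gene was called past 1.5-fold between libraries, or past 2-fold in both libraries between populations. Shares carry exact Clopper-Pearson intervals, levels exact Poisson intervals and ratios exact conditional binomial intervals at 95%, for counting error only. No replicate exists, so no test was made.

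The selection and all 28 gene lists (406 genes) were chosen with earlier results of these data known. Beyond list genes, the text names by rule the 10 highest and 10 lowest genes of each comparison: for Mut against WT, those with at least 50 CPM in a library and an interval that leaves out 1; between populations, by the smaller ratio of both libraries. Rule genes, mitochondrial, haemoglobin and sex-chromosome marker genes and genes higher in free RNA (barcodes of 10 to 100 UMIs) were left out. Doublets were kept; Scrublet (in scanpy 1.11.5) ranked the barcodes, the top 0.8% per 1000 barcodes being removed as an alternative. These were 16 of the WT neurons and 11 of the Mut neurons. Sex was called per cell from Xist against Y-chromosome genes. Microglia were barcodes with at least 10 UMIs of C1qa, C1qb and C1qc. Oligodendrocyte precursors had at least 3 Pdgfra UMIs, no UMI of those C1q genes and fewer than 3 of the 6 GABAergic genes. Thinning drew 2000 UMIs per barcode. TMM came from edgeR 4.0.16. Leaving out barcodes shared by the libraries and those with at least 20 glial or vessel UMIs was chosen after seeing the data. The ratio code was tested on simulated data. Python 3.11.15, numpy 2.4.6, scipy 1.17.1, pandas 2.3.3 and matplotlib 3.10.9 were used. Some named genes and list members are not reported here.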

Additional observations from a re-analysis of the deposited data

Results flagged for a closer look

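For Cldn5 and Igfbp7 the Mut to WT ratio had opposite signs in female and male Six3 or Foxp2 neurons. Cldn5 had a log2 ratio of 0.81 in female cells and -8.02 in male cells, and Igfbp7 of 1.31 and -3.77. The difference between the sexes was not tested. The female values rest on 1 WT and 2 Mut UMIs for Cldn5 and on 0 and 1 for Igfbp7, and the male values on 395 WT and 0 Mut UMIs for Cldn5 and on 107 and 5 for Igfbp7.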

How the results depend on the processing

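No paired analysis was possible because each genotype has 1 library. Over 86 recomputed shares and counts, 63 stayed near their main value and 23 moved. The Mut to WT ratio of shares of filtered barcodes was 0.510 in female and 0.931 in male cells. Genes past 1.5-fold between Mut and WT (136) became 63 without Scrublet-ranked doublets, 89 with at least 2 Six3 and Foxp2 UMIs, 33 when thinned, 39 in female cells, 56 without barcodes rich in glial or vessel RNA, 832 at a minimum of 30 UMIs per gene and 55 at 200. Against Sp8-positive neurons (140) the counts were 245 with at least 2 UMIs, 82 thinned, 244 at 30 and 91 at 200. Against interneurons (82) they were 29 thinned, 30 in female and 50 in male cells, 330 at 30 and 43 at 200. Between Six3-only and Foxp2-only cells (116) they were 46 thinned, 30 in female cells, 76 without barcodes rich in glial or vessel RNA, 218 at 30 and 29 at 200. Fewer cells, UMIs or genes tested enter most of these settings. Some named genes reversed. Between Mut and WT, Nap1l5 went to -0.13 without doublets, -0.86 thinned, -0.32 in female cells and -0.26 without barcodes rich in glial or vessel RNA, and Slc6a6 to 0.092 without doublets and 0.036 without those barcodes. Lsamp went to -0.40 without those barcodes, Rgs5 to -2.99 with at least 4 GABAergic genes, Igfbp7 to 1.06 and Col4a1 to 2.12 with at least 2 UMIs, Itm2a to 0.36 without doublets and Bsg to 0.054 thinned. Against interneurons, Pcp4 went to 5.93 thinned and 5.93 in female cells and Gap43 to 1.12 in female cells. The cause was not tested. Of the other values of named genes, 1124 stayed near and 106 moved.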
